A study of Drosophila melanogaster with 2 samples.

Results

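The 39 genes described here encode proteins that copy DNA and drive cells through division, and they were chosen by name from the 13968 protein-coding genes annotated on the main chromosome arms of Drosophila melanogaster. They comprise 17 genes of replication licensing and DNA synthesis, 12 genes of cyclins, cyclin-dependent kinases and their regulators, 4 genes of the E2F pathway and 6 genes of mitosis. Each was examined for binding of Ptx1, a homeodomain transcription factor of the paired-like class, by chromatin immunoprecipitation and sequencing (ChIP-seq). The material was whole embryos, collected over the first 0 to 24 h of development, from a strain carrying a Ptx1 gene fused to enhanced green fluorescent protein (Ptx1-eGFP). Chromatin had been sheared by sonication to 200 to 800 bp. The sample descriptions state that the precipitation used an antibody to GFP, whereas the antibody field of the same records names Ptx1. There were 2 biological replicates, both from this strain, so all samples formed 1 group and no condition could be compared with another. Whole embryos of every age in the collection were mixed, so a weak site in all cells and a strong site in few cells cannot be told apart. No control sample was analysed here, and the number of reads behind each peak is unknown.

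Replication begins when the origin recognition complex marks origins and Cdc6 and Dup load the ring-shaped Mcm helicase onto them. Cyclins paired with their kinases then start DNA synthesis and mitosis in order, and the E2F and Dp proteins, held in check by Rbf, turn on many of the genes needed for synthesis. In the fly embryo the first divisions run on proteins and RNA supplied by the mother, and later divisions depend on transcription in the embryo itself, with string setting the time of mitosis.

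Peaks of the conservative list had passed the authors' threshold on the irreproducible discovery rate (IDR), a measure of agreement between ranked peak lists. A gene was called bound when a peak summit of that list lay within 1000 bp of a transcription start site (TSS, here "start"). By this rule 19 of the 39 genes (48.7%) were bound, against 3710 of 13929 other coding genes (26.6%). The share was 7 of 17 (41.2%) for replication genes, 7 of 12 (58.3%) for cyclins and kinases, 1 of 4 for the E2F pathway and 4 of 6 (66.7%) for mitotic genes. When a summit anywhere in the gene body was also accepted, 20 of 39 genes (51.3%) were bound, against 31.2% of other coding genes, the addition being E2f1. The 39 genes were selected with results of these data known, so these shares are descriptions and no test was made of them.

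The replicates gave lower counts than the list that combines them. Each replicate's own list carries its own IDR values, so passing its threshold is not agreement between the 2 replicates. In the thresholded list of replicate 1 alone, 15 of the 39 genes (38.5%) met the same 1000 bp criterion, against 23.4% of other coding genes. In that of replicate 2 alone, 12 genes (30.8%) did, against 21.9%. Both replicates had such a summit at 11 genes (28.2%), against 19.4% of the others. The second thresholded list of the series held 18 of the 39 genes (46.2%), against 27.9%. For the 17 replication genes alone the second series list held 4 (23.5%), below the 27.9% of other coding genes, and replicate 1 also held 4 (23.5%), beside 23.4%. The share among all 39 genes lay above that of other coding genes in every one of these lists, although the lists derive from the same 2 immunoprecipitations and are not independent.

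**Figure D1:**
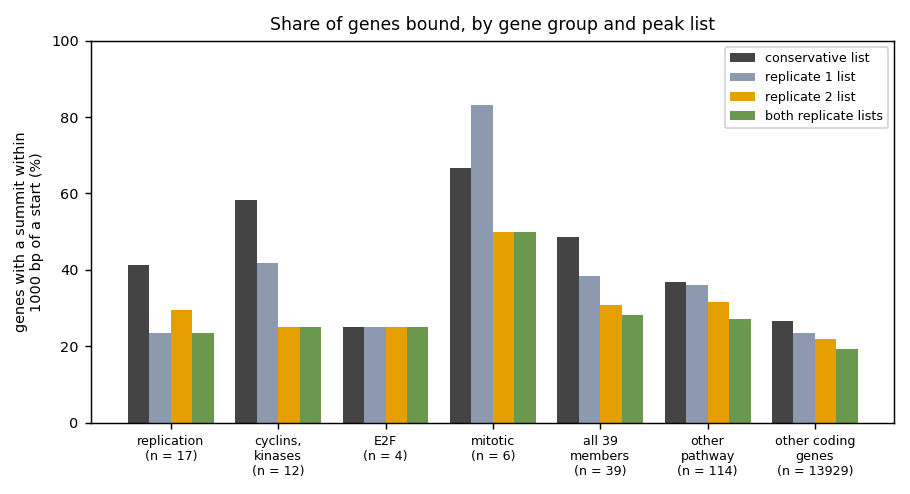
Share of genes (%, vertical axis) with a summit within 1000 bp of a start, for the 4 groups of listed genes, all 39 together, 114 other genes of the same pathways and all other coding genes, with 1 bar per peak list. The conservative list called 48.7% of the 39 genes and 26.6% of other coding genes, and the mitotic bars rest on 6 genes and the E2F bars on 4.

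Among the licensing genes, the helicase subunits were bound unevenly. Mcm2, a subunit of the helicase (FBgn0014861, 3R, 8264970 to 8267924), had a summit 96 bp upstream of its start. It scored 288 and ranked 1218 in the list of 6840 peaks. These scores are the authors' own value for each peak, have no stated unit, and place a peak only against others of its list. The site was in the thresholded lists of both replicates, with a score of 192 in replicate 1 and 88.7 in replicate 2. The same summit lay 423 bp upstream of RPA1, which encodes the large subunit of the single-strand DNA binding complex and is read in the opposite direction.

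dpa, which encodes the Mcm4 subunit, had its summit in the 5′ UTR, 103 bp upstream of the nearest start, with a score of 273 and both replicates past their thresholds (147 and 129). Mcm5 was weaker, with a score of 71.1 and rank 5959. Its summit lay 269 bp upstream of Mcm5 but 29 bp from the start of the neighbour Art1, which encodes an arginine methyltransferase, and neither replicate's own peak (33.9 and 30.6) passed its threshold. Mcm3, Mcm6, Mcm7 and the replication initiation factor gene Mcm10 were not bound. Thus 3 of the 6 helicase subunit genes were bound, of which Mcm2 and dpa passed in both replicates.

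Of the 5 listed origin recognition complex genes, Orc2 alone was bound, and it was the weakest of all 19 bound genes. Its summit lay 222 bp upstream with a score of 63.8 and a rank of 6310. Its scaled IDR value was 834, just above the lowest value of 830 in the list, and neither replicate's peak there (30.9 and 34.1) passed alone. Orc1, Orc4, Orc5 and Orc6 had their nearest conservative summits 3768, 3761, 3361 and 12624 bp from a start. Cdc6, the loader that acts with the complex, had its nearest summit 4933 bp away.

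dup (double parked), which encodes the Cdt1 protein that brings the helicase to origins, had a pair of summits beside its divergent neighbour SRPK, a protein kinase gene. They lay 304 bp and 88 bp upstream of the nearest dup start, with scores of 174 and 162. The first scored 108 in replicate 1 and 64.2 in replicate 2, the second 84.1 and 88.7, and all passed. Both summits were nearer to SRPK, at 157 and 22 bp, than to dup.

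The ribonucleotide reductase subunits, which together make the deoxynucleotides for DNA synthesis, were called differently. RnrS (FBgn0011704, 2R, 11983145 to 11985393), the small subunit gene, had the strongest site of the replication group, 216 bp upstream of its start, scoring 597 at rank 357. Replicate 1 scored 334 and replicate 2 scored 248, and both passed. RnrL, the large subunit gene, had no peak within 1000 bp even among the 91374 ranked peaks of the replicate pair before thresholding, and its nearest conservative summit was 11334 bp away. PCNA, which encodes the sliding clamp of DNA polymerase, had a summit 9 bp upstream of a start that scored 82.6 and ranked 5316. A second, overlapping peak 220 bp upstream scored 6.37, and the replicate peak at both, scored 47.0 and 35.6, passed in neither replicate.

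Cyclin and kinase genes with summits covered the entry into DNA synthesis and the entry into mitosis. CycE (FBgn0010382, 2L, 15727581 to 15748150), the cyclin that starts DNA synthesis, had the highest score of this group, 337 at rank 967. The summit lay in an intron, 467 bp upstream of an internal start, and scored 189 in replicate 1 and 159 in replicate 2, both past their thresholds. A second intronic summit 673 bp upstream, with a score of 159, matched a replicate 1 peak (94.1) and no replicate 2 peak within 100 bp. Cdk2, the partner of CycE, had no conservative summit within 86382 bp, the longest distance of any listed gene. In the second series list Cdk2 had a summit 121 bp downstream of its start with a score of 50.5.

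CycD, which acts with Cdk4 in growth and cell cycle entry, had a summit 485 bp upstream with a score of 113, past the threshold in replicate 1 (65.4) and not in replicate 2 (48.9). Cdk4 had summits 639 bp upstream and 993 bp downstream of its nearest starts, with scores of 143 and 100. The upstream site passed in both replicates (54.2 and 92.1), and the downstream site, just inside the 1000 bp window, passed in replicate 1 alone (56.3 and 43.2). dap (dacapo), which encodes the inhibitor of CycE and Cdk2 activity, had a summit 499 bp upstream with a score of 71.8, and its replicate peaks (41.2 and 39.9) passed in neither.

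For mitotic entry, Cdk1 had a summit 216 bp upstream with a score of 164, and both replicates passed with scores of 81.5 and 80.6. The summit was 184 bp from the start of mRpS7, a mitochondrial ribosomal protein gene read in the opposite direction. stg (string), the Cdc25 phosphatase that activates Cdk1, had a summit 507 bp upstream with a score of 80.9, which passed in replicate 1 (50.4) and not in replicate 2 (28.3). This summit was nearer to CG45544, at 178 bp. twe (twine), the related phosphatase of meiosis, had no ranked peak of the replicate pair within 1000 bp, and Myt1, a kinase that inhibits Cdk1, had its nearest conservative summit 8380 bp away.

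Of the 3 mitotic cyclins, CycB was bound and CycA and CycB3 were not. CycB had a promoter summit 94 bp upstream with a score of 92.6 and rank 4781, and neither replicate's peak passed (52.1 and 35.8). A far stronger peak lay at the other end of the gene, on 2R from 22802807 to 22803140. Its summit was 545 bp past the 3′ end and 3327 bp downstream of the nearest CycB start, which was the nearest start of any coding gene. It scored 1109, ranked 96 in the list, and passed in both replicates with scores of 616 and 496. That site lies outside the 1000 bp window and the gene body and adds to no count given here. The nearest summits to CycA and CycB3 were 10999 and 5918 bp away.

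The E2F pathway was bound at Dp, E2f1 introns and no other listed member. Dp (FBgn0011763, 2R, 13222433 to 13228202), the shared partner of the E2F proteins, had the highest score of all 39 genes. Its strongest summit lay in an intron, 209 bp upstream of an internal start, scoring 714 at rank 246. In both replicates the summit was at the same base position relative to the start, and both passed with scores of 413 and 303. Further summits 384 bp downstream and 42 bp upstream of starts scored 398 and 163, and each passed in both replicates. Dp was the one listed gene with 3 summits in its window.

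E2f1, the activator E2F (FBgn0011766, 3R, 21620304 to 21660871, 40568 bp with 5 starts), had no conservative summit within 1000 bp of a start and 5 in its introns. The 2 strongest scored 209 and 181, lay 4734 and 3435 bp downstream of the nearest start, and passed in both replicates (106 and 99.1, then 96.4 and 73.2). The others scored 106, 84.1 and 83.9, and of these the first passed in replicate 2 alone and the last pair in neither. E2f2, the repressor E2F, had its nearest conservative summit 1918 bp away. Rbf, the retinoblastoma family protein that restrains E2F, had its nearest at 21838 bp.

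**Figure D2:**
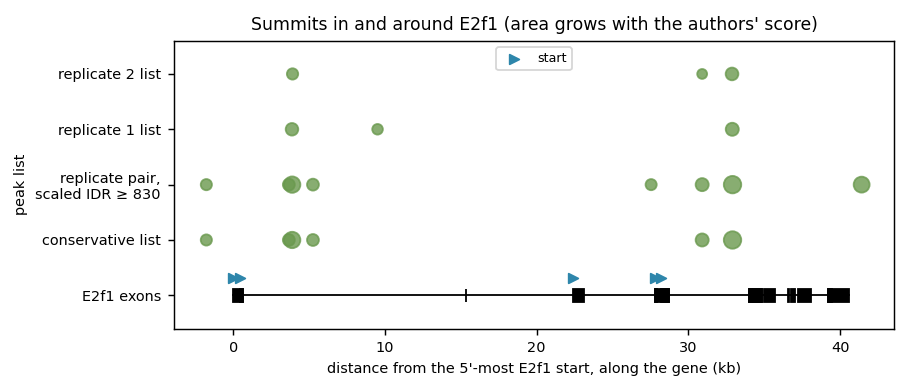
Summits (green circles, area growing with the authors' score) in and around E2f1 by distance along the gene (kb from its 5′-most start), in the conservative list, in the replicate-pair list at a scaled IDR of 830 or more, and in each replicate's thresholded list. Exons are black boxes and starts are blue arrows. Of the conservative summits, 5 lie in introns towards either end of the gene and 1 lies 1786 bp upstream of the first start, and the replicate-pair list has further summits beside the internal starts and past the 3′ end.

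Mitotic genes had mid-ranking sites. BubR1, a spindle checkpoint kinase gene, had a summit 121 bp upstream with a score of 216 and rank 1856, and passed in both replicates (124 and 86.8). aurA, which encodes the Aurora A kinase of centrosomes, had a summit 122 bp upstream with a score of 166, also passing in both (112 and 52.8). aurB, which encodes the Aurora B kinase of the chromosomal passenger complex, had a summit 259 bp upstream that scored 114.8, passed in replicate 1 (62.5) and not in replicate 2 (54.0), and lay nearer to Stam, at 183 bp.

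Of the activators of the anaphase-promoting complex, fzr was bound and fzy was not. fzr (fizzy-related), the activator that ends the cycle and allows exit from proliferation, had summits 450 bp upstream and 239 bp downstream, with scores of 152 and 65.4. The upstream summit passed in both replicates (79.9 and 64.9), and the downstream summit in neither. fzy (fizzy), the activator at the end of metaphase, had its nearest summit 3755 bp away. polo, a mitotic kinase gene, was not in the conservative list. Its summit 60 bp upstream scored 75.7 in the second series list, and the summit 93 bp upstream in replicate 1 passed with a score of 55.9.

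**Figure D3:**
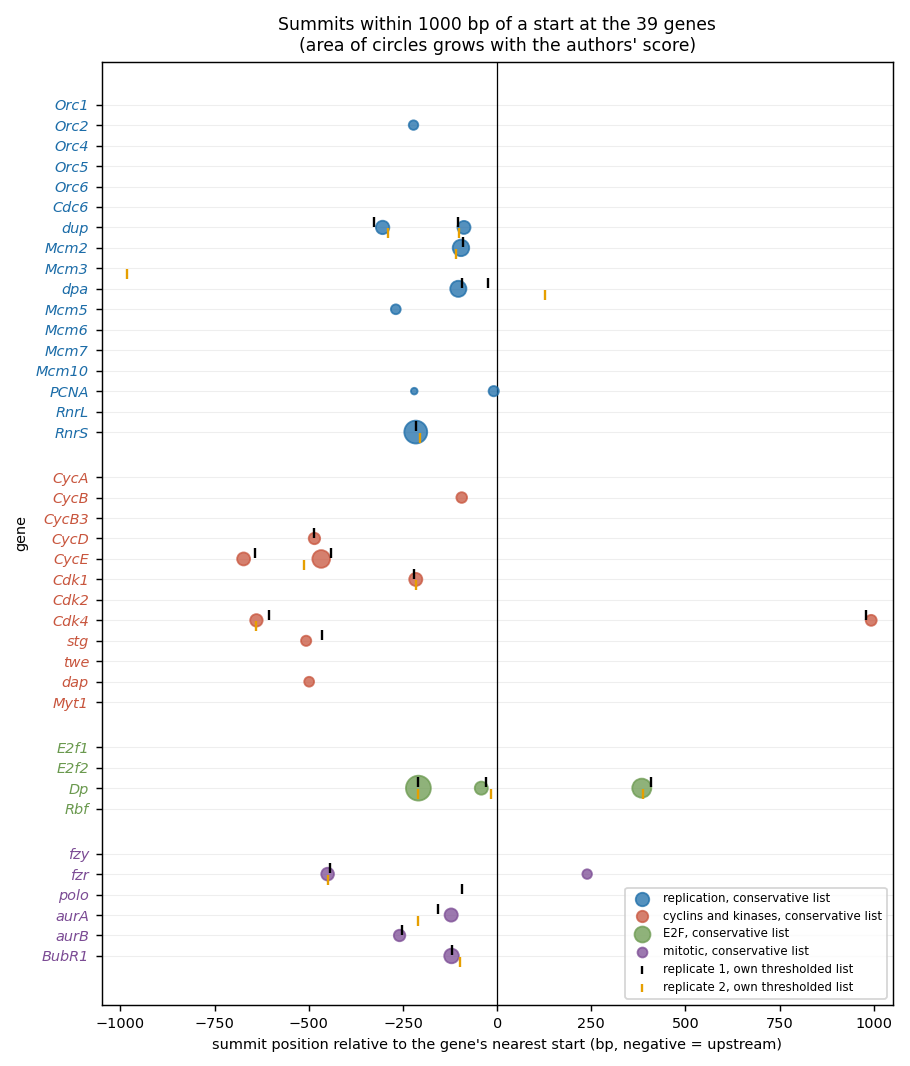
Summits within 1000 bp of a start at each of the 39 genes, by position relative to the nearest start (bp, negative upstream). Circles are conservative summits, with area growing with the authors' score, and ticks are summits of each replicate's thresholded list. The strongest summit of each of the 19 bound genes lies upstream of the start.

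The 19 bound genes had 26 summits within 1000 bp of a start, the distance that the rule itself sets. The strongest summit of each gene ranked between 246 and 6310, and 11 of the 19 were above the list's median score of 129. The quartiles of these scores were 87.6, 152 and 245, against 110, 181 and 338 for the strongest summit at other bound coding genes. All 19 lay upstream of the nearest start of the gene, against 84.5% at other bound genes. The median position was -222 bp against -148.5 bp, and 10 of 19 (52.6%) were within 250 bp against 61.5%. By annotation 16 lay outside the gene, 2 in introns (CycE and Dp) and 1 in a 5′ UTR (dpa).

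All 19 strongest summits had a matching peak in the ranked list of each replicate. Of these, 11 passed the threshold in both replicates, 3 (CycD, stg and aurB) in replicate 1 alone and 5 (Orc2, Mcm5, PCNA, CycB and dap) in neither. Those 8 genes with at most 1 replicate past its threshold were also the 8 that fell below the list's median score.

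**Figure D4:**
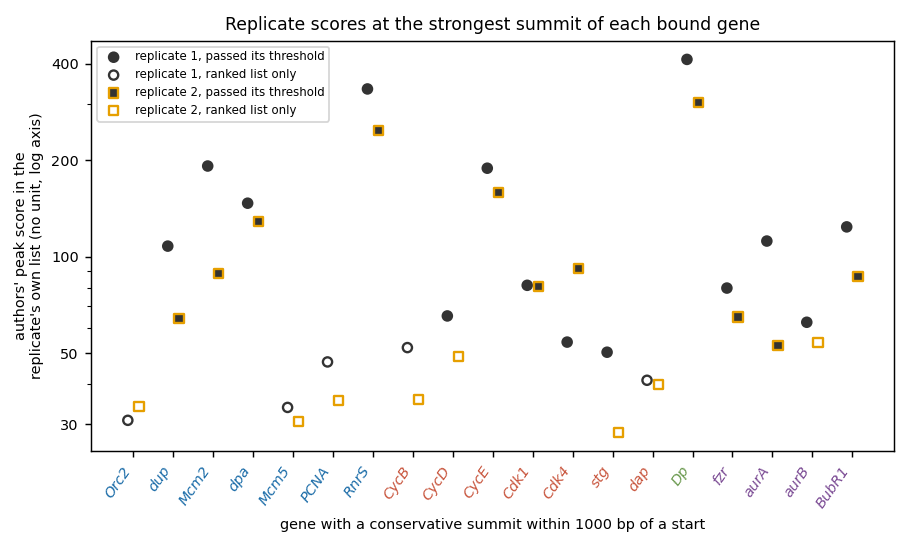
Authors' score of the peak matching the strongest summit of each bound gene in each replicate's own ranked list (log axis, no unit), with filled symbols where the peak passed that replicate's threshold. Scores of the replicates come from separate lists, so fill rather than height is to be compared between them. Both symbols are filled for 11 genes and both are open for 5.

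Gene length, number of starts and neighbours, which bear on how many genes meet such a rule, were also counted. The median length of the listed genes was 2880 bp against 2161 bp. A head-to-head neighbour, meaning a coding gene read in the opposite direction with a start within 1000 bp upstream, was present at 20 of 39 (51.3%) against 36.1%. Genes with such a neighbour were bound more often in either set, at 12 of 20 (60.0%) of the listed genes and 44.3% of the others. Without one, 7 of 19 listed genes (36.8%) and 16.6% of the others were bound. Among genes with a single start, 10 of 26 listed genes (38.5%) and 20.7% of the others were bound. The part of gene structure in the difference between the sets was not tested. A summit in such a shared promoter cannot be assigned to either gene. The listed gene owned the nearest start at 14 of its 19 strongest summits (73.7%), against 70.1% at other bound genes. The exceptions were dup, Mcm5, Cdk1, stg and aurB. Orc2, Mcm2, dpa, RnrS, CycB, Dp and aurA also had such a neighbour. Their own start was the nearest, which does not settle the gene to which the site belongs.

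By chromosome arm, 9 of 12 listed genes were bound on 2R, 5 of 8 on 3R, 3 of 9 on 2L, 2 of 5 on X and 0 of 5 on 3L. The shares of other coding genes on these arms were 25.7%, 27.8%, 25.4%, 28.6% and 26.7%. The unbound genes of 3L were Cdc6, Mcm7, CycA, Myt1 and polo.

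Of the 20 unbound genes, 17 appeared in no thresholded list within 1000 bp of a start. The exceptions were Cdk2 and polo, given above, and Mcm3, which had a replicate 2 summit 982 bp upstream with a score of 36.4 and a conservative summit just outside the window, at 1145 bp. Another 5 genes (Mcm6, Mcm10, RnrL, CycA and twe) had no peak of the replicate pair within 1000 bp even before thresholding. The remaining genes had such peaks below the threshold, apart from E2f1. For example, Orc1 had a peak 27 bp downstream of its start with a score of 55.1 and a scaled IDR of 609, and E2f2 a peak 15 bp upstream with 53.1 and 716. With read depth unknown, an unbound gene is one at which no peak passed, and weaker binding may have gone undetected.

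Short words known for control of these genes were then looked up at their starts, as a description of the sequence beside the binding. E2F proteins recognise sites of the type TTTCCCGC, TTTCGCGC, TTTGCCGC or TTTGGCGC, and the DNA replication-related element (DRE), first known from the PCNA promoter, is TATCGATA. TAATCC is the core recognised by homeodomains of the Ptx1 class. Both strands were searched in 300 bases at each start, from 250 before to 50 after it. An E2F-type word was present at 15 of the 39 genes (38.5%), against 8.59% of other coding genes and 6.72% of all 19630 start windows. It was at 12 of 17 replication genes (70.6%), 3 of 12 cyclin and kinase genes, and 0 of the 4 E2F and 6 mitotic genes. The DRE was at 7 of 39 (17.9%), against 10.1% of other genes and 7.98% of all start windows. TAATCC was at 4 of 39 (10.3%), against 11.1% and 8.48%.

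The E2F-type words shown first are those at the printed members, with 8 bases on either side and the word in capitals, since they are what most replication genes shared and the binding rule did not use. All sequences are from the RefSeq genome of the same assembly (dm6) and are given 5′ to 3′ on the strand named.
Mcm2, 36 to 43 bp after the start, plus strand, chr3R:8264998-8265021: gcaaacatTTTCCCGCgcattttc
Mcm3, 6 bp before to 1 bp after the start, plus strand, chrX:5323841-5323864: actacgctTTTCCCGCgaaaaaac
Mcm5, 32 to 39 bp after the start, minus strand, chr3R:10788548-10788571: gcgaatatTTTGCCGCcaaaatta
Mcm6, 13 to 20 bp after the start, minus strand, chrX:6674392-6674415: tgctcggtTTTGGCGCctttttct
Orc5, 10 to 17 bp after the start, plus strand, chr2L:13829839-13829862: gggaataaTTTGGCGCcatttcaa
RnrL, 2 to 9 bp after the start, minus strand, chr2L:10327926-10327949: gactttaaTTTGGCGCctttttgt
RnrL, 33 to 40 bp after the start, minus strand, chr2L:10327895-10327918: acaatcaaTTTGCCGCctcttgtg
CycE, 114 to 107 bp before an internal start, minus strand, chr2L:15746709-15746732: ttgcatttTTTGGCGCttcggatc
CycE, 91 to 84 bp before the same start, minus strand, chr2L:15746686-15746709: ccgcctgtTTTGGCGCgttcctca
stg, 13 to 6 bp before the start, plus strand, chr3R:29255798-29255821: ccactgatTTTGGCGCgcgagctt
Mcm2, Mcm5, CycE and stg of these were bound by Ptx1-eGFP, and Mcm3, Mcm6, Orc5 and RnrL were not.

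The DRE words at the printed members, shown in the same way because Orc2 carries a copy beside its summit, were as follows.
Orc2, 201 to 194 bp before the start, plus strand, chr3R:13964676-13964699: tttaaattTATCGATAacgtatgc
Orc2, 17 to 24 bp after the start, plus strand, chr3R:13964894-13964917: gtcttagtTATCGATAattcccgc
Orc5, 70 to 63 bp before the start, plus strand, chr2L:13829759-13829782: tttcgttaTATCGATAtttttcga
CycA, 11 to 4 bp before the start, minus strand, chr3L:11833574-11833597: ccacgaccTATCGATAgctggaca
Cdk2, 61 to 54 bp before the start, plus strand, chr3R:20735554-20735577: ggaattctTATCGATAtgtggcgc
Orc5 held a DRE and an E2F-type word, and it was the 1 listed gene with both. Among the genes printed here Orc2 was bound, and Orc5, CycA and Cdk2 were not. DREs were also present at PCNA, Cdk4 and BubR1, which were bound. E2F-type words were also at Orc1, Orc4 and Orc6, which were not bound, and at dup, dpa, RnrS and CycB, which were. The CycB word was at a different start from the one nearest its summit.

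The 101 bases centred on a summit show what the bound positions themselves held, and 4 are printed: the strongest printable replication, cyclin and mitotic sites (Mcm2, CycE and aurA) and the weakest bound gene, Orc2, with its DRE in capitals. All are on the strand of the gene.
Mcm2, chr3R:8264824-8264924, plus strand: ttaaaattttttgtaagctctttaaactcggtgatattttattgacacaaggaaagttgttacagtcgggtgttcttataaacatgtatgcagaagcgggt
CycE, chr2L:15747027-15747127, minus strand: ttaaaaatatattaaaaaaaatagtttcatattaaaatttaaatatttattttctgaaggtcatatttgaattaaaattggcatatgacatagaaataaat
aurA, chr3R:11962952-11963052, plus strand: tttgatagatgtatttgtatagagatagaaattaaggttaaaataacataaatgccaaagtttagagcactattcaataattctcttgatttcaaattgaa
Orc2, chr3R:13964613-13964713, plus strand: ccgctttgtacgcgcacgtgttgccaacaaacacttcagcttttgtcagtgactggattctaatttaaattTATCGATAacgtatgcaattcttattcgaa
Their GC contents were 33.7%, 13.9%, 23.8% and 38.6%. Over the strongest summits of all 19 bound genes GC content ran from 13.9% (CycE) to 55.4% (PCNA) with a median of 36.6%. The median was 31.7% over all conservative summits, which include ones far from any start.

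Few of the words fell at the summits. In the 101 bases at the strongest summit, the DRE was present at 2 of the 19 bound genes (Orc2 and PCNA), an E2F-type word at 1 (dpa) and TAATCC at 0. Over all conservative summits the shares were 1.42%, 1.1% and 3.81%, but those summits include ones far from any start. E2F-type words were at the starts of 8 of 19 bound listed genes (42.1%) and 7 of 20 unbound ones (35.0%). Among other coding genes they were at 11.1% of bound and 7.7% of unbound genes. TAATCC was at the starts of 3 of 19 bound (15.8%) and 1 of 20 unbound listed genes (5.0%), against 12.1% and 10.8% of other genes. The DRE was at 4 of 19 (21.1%) and 3 of 20 (15.0%), against 15.0% and 8.38%. A word in a window shows its letters alone and not that a factor used it.

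**Figure D5:**
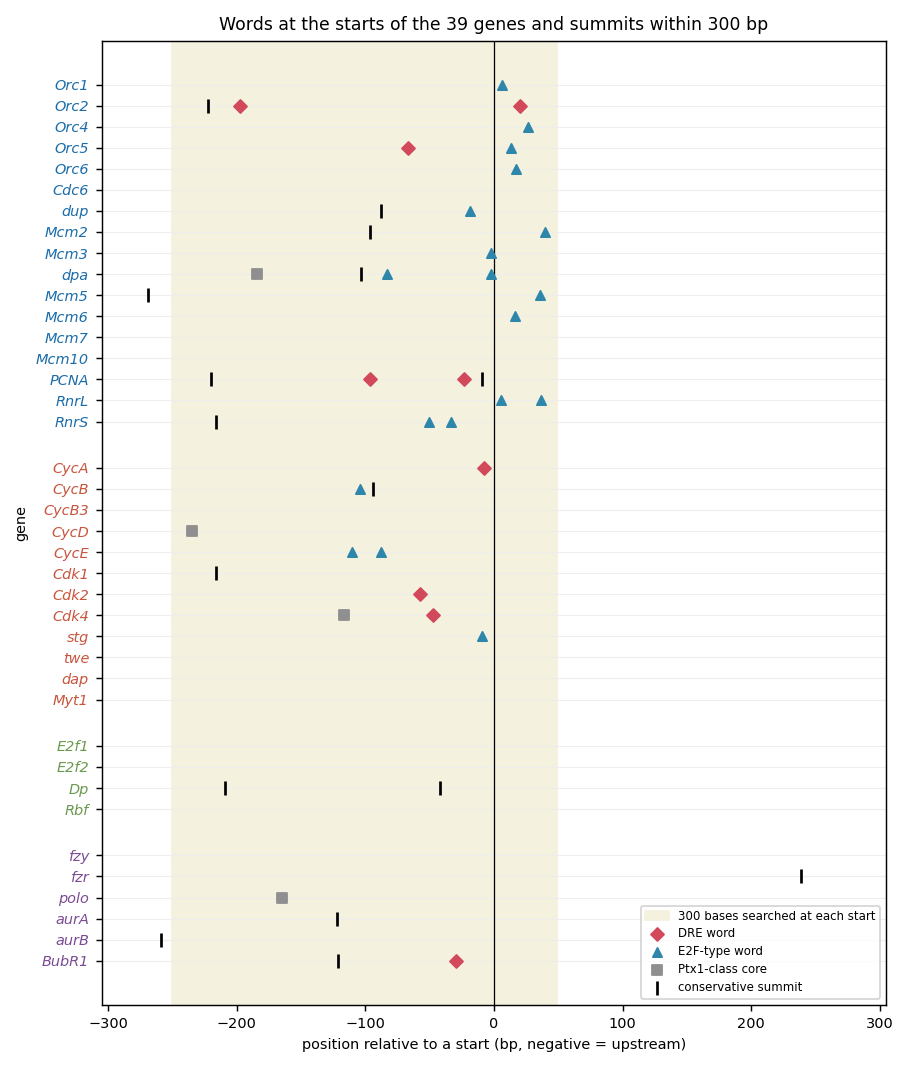
Positions of the words and of conservative summits relative to a start (bp, negative upstream) at the 39 genes, within the 300 bases searched (shaded) and up to 300 bp on either side for summits. Each word is placed from the start whose window holds it, and each summit from its nearest start. At genes with several starts these origins can differ, as at CycB, and the same DRE of PCNA is drawn from 2 starts. Blue triangles (E2F-type words) gather near the start of replication genes, and black bars (summits) lie mostly farther upstream.

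The wider pathways were examined with a list of 114 further genes of replication and the cell cycle, of which 42 (36.8%) were bound, against 26.6% of coding genes outside the 39. These are counts of genes and not of sites, since head-to-head neighbours can share a summit. RPA1 is among the 42 through the summit that also counted for Mcm2, so the 2 lists are not independent. The counts were 13 of 40 replication genes, 9 of 20 cyclin, kinase and checkpoint genes, 2 of 8 genes of the E2F class and 18 of 46 mitotic genes. The highest-scoring replication genes were PolD2, a subunit of DNA polymerase delta (score 1070, 113 bp upstream), and chif, which encodes the activator of the Cdc7 kinase (940, 980 bp upstream). Top1, DNA topoisomerase I (403), and Ctf4, which links helicase and polymerase (362), followed, the Ctf4 summit being nearer to the start of another gene. In the kinase class they were mei-41, the ATR checkpoint kinase (729), SkpA, a ubiquitin ligase subunit (643), mts, a protein phosphatase subunit (167), and grp, the Chk1 kinase of the early embryo (159), and each of their summits was nearer to the start of another gene.

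lin-52 (739) and mip130 (129), which encode subunits of a complex that works with E2F and Rbf, were the bound genes of the E2F class, and both summits were nearer to the start of another gene. The highest mitotic scores were at SMC2, a condensin subunit (602), Cdc16, a subunit of the anaphase-promoting complex (596), and tum and sti, which act in cytokinesis (543 and 400). All these named genes were in the thresholded lists of both replicates. The median score of the strongest summit at the 42 bound genes was 154, beside 152 at the 19 bound genes of the main list. An E2F-type word was at 18 of the 114 genes (15.8%), 15 of them in the replication class, against 8.59% of coding genes outside the 39. The DRE was at 27 (23.7%), against 10.1%.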

How the data were processed

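Whole embryos gave 2 biological replicates of Ptx1-eGFP ChIP-seq, which form 1 group by their labels. The authors deposited ranked and thresholded IDR peak lists on dm6, per replicate and for the series. The deposited columns used were the score of each peak (a strength with no stated unit), its scaled IDR score (capped at 1000, at least 830 in thresholded lists) and its summit. The conservative list held 6840 peaks, the other thresholded series list 7439, replicate 1's own list 5480 and replicate 2's 4825. Read depth is unknown, and no aligner or peak caller is named (not given in the sources used here).

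Summits were compared with the starts of protein-coding transcripts in Ensembl release 115 (same assembly) on the arms of chromosomes 2 and 3 and on chromosomes 4, X and Y. A replicate peak matched a conservative peak when its summit lay inside that peak or within 100 bp of its summit. Sequence came from the RefSeq genome. All 39 genes are named, and of the other pathway genes up to 4 bound ones per class by score. Of 116 such names 114 matched 1 gene each. A neighbour is named where its start is nearer than that of a listed gene to a summit counted for the latter. RPA1 was named after its values were seen. The members, lists and words were chosen with earlier results of these data known, so no list was tested. Alternatives covered the peak list, each replicate alone, the score, the window and the nearest-gene rule. The functions were tested on simulated data. Python 3.11.15, numpy 2.4.6, pandas 2.3.3 and matplotlib 3.10.9 were used.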

Additional observations from a re-analysis of the deposited data

Results flagged for a closer look

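E2f1 had a peak at an internal start that the conservative list did not hold. It lay on 3R from 21633141 to 21633510, with its summit 253 bp upstream of that start, a score of 70.0 and rank 6650 among the ranked peaks of the replicate pair. Its scaled IDR was 1000, above the minimum of 830 in the thresholded lists. It drew attention because it is a signal in a list that the main calls do not use. The sources used here do not say what kept it out of the conservative list. It was not the only such case: counting all such peaks raised the bound genes among other coding genes from 3710 to 3783. In the ranked lists of the single replicates the highest peaks near an E2f1 start scored 44.0 at 210 bp upstream in replicate 1 and 36.3 at 376 bp upstream in replicate 2. Their scaled IDR values were 1000 and 577, and neither was in its replicate's thresholded list.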

How the results depend on the processing

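Of 66 recounts under other settings, 53 stayed within 1.5 times the reported count and 13 did not. With each replicate's own list in place of the combined list, bound genes ran from 12 (without replicate 1) to 15 (without replicate 2) in place of 19, those bound at a start or in the body from 13 to 16 in place of 20, cyclin and kinase genes from 3 to 5 in place of 7, and replication genes from 4 (without replicate 2) to 5 (without replicate 1) in place of 7. Without replicate 1 the conservative calls lost were Orc2, Mcm5, PCNA, CycB, CycD, stg, dap and aurB. Restricting the list to peaks at or above the median score gave 11 of 39 genes (28.2%), against 17.8% of other coding genes. That list gave 12 of the 39 with gene bodies, 4 of 17 replication genes (23.5%) and 3 of 12 cyclin and kinase genes. Of the 114 other pathway genes it held 27 (23.7%). The second series list gave 4 of 17 replication genes (23.5%), against 27.9% of other coding genes. Counting a summit only for the nearest start gave 25 of the 114 (21.9%), close to the 19.5% of other coding genes under that rule. A window of 2000 bp gave 3 E2F genes in place of 1, and all replicate-pair peaks above the IDR minimum, an alternative chosen after seeing the data, gave 2. The share among the 39 genes stayed above that of other coding genes under each setting run on both. No paired analysis was possible because both samples form 1 group. Read depth is unknown, which limits what an absent peak shows.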
